A study of Mus musculus with 28 samples.

Results

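Hox cluster genes were followed in naive mouse embryonic stem cells that had lost the corepressor KAP1, the DNA methyltransferases or the TET dioxygenases. The 38 genes were taken by name from the 37991 genes of the count table, 10 from HoxA, 10 from HoxB, 9 from HoxC and 9 from HoxD. The cells were J1 mouse embryonic stem cells (129S4/SvJae), kept in N2B27 medium with LIF and 2i on gelatin. They were wild type (WT), DNMT TKO, which lack Dnmt1, Dnmt3a and Dnmt3b, or TET TKO, which lack Tet1, Tet2 and Tet3. Cultures for RNA and for 5-hydroxymethylcytosine (5hmC) carried a lentiviral hairpin, either an empty control (shEmpty) or one against Kap1 (shKap1). They were selected with puromycin and collected at day 5. RNA was sequenced from 3 samples per hairpin of WT and of DNMT TKO, and from 2 samples per hairpin of TET TKO. Each genotype was a single line, so genotype and line cannot be told apart. WT cells alone were profiled for the histone marks H3K27me3 and H3K4me3, with 2 replicates each, and for 5hmC. The titles of the histone mark samples name no hairpin.

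Hox genes encode homeodomain transcription factors that give cells their position along the head-to-tail axis. Within a cluster their order on the chromosome matches the order in which they are used in the embryo, from anterior genes, which are switched on first and act in the hindbrain and neck, to posterior genes, which act in the lumbar region, limbs and tail. In embryonic stem cells the clusters are classical targets of Polycomb complexes, which deposit H3K27me3, and many of their promoters carry the activating mark H3K4me3 as well. KAP1, encoded by Trim28, is brought to transposable elements by zinc finger proteins and recruits enzymes that deposit the silencing mark H3K9me3. Members of paralog groups 1 to 3 are called anterior here, those of groups 4 to 8 central and those of groups 9 to 13 posterior.

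Reads on genes numbered 18108431 to 29373696 per RNA library, and Hox genes took 44.1 to 129 RPM (raw reads relative to the library total) of them. In WT and in DNMT TKO the library numbered 1 of each hairpin had the fewest Hox reads of its group. It held 44.1 RPM against 71.7 and 76.9 in WT shEmpty, and 70.4 against 96.9 and 105 in DNMT TKO shEmpty. Levels below are CPM, counts scaled to a common library size with TMM factors. Trim28 had log2 fold changes of -3.41 in WT, -2.13 in DNMT TKO and -3.47 in TET TKO on knockdown, and the fall was smaller in DNMT TKO than in WT (difference 1.28, edgeR adjusted p = 8.02e-04). Trim28 stood at 1626 to 2085 CPM with shEmpty over all genotypes, and at 149 to 190, 327 to 506 and 163 to 168 CPM with shKap1 in WT, DNMT TKO and TET TKO. In DNMT TKO Dnmt1, Dnmt3a and Dnmt3b were lower than in WT, with log2 fold changes of -1.65, -3.04 and -2.64. In TET TKO Tet1 and Tet2 were lower, at -1.49 and -2.16, while Tet3 transcripts differed from WT by -0.03 (adjusted p = 0.924). The 7 naive stem cell markers summed to 3647 to 3858 CPM in WT shEmpty and to 2200.0 to 2357 CPM in WT shKap1, and were likewise lower with shKap1 in DNMT TKO (2479 to 2816 against 3826 to 3889 CPM) and TET TKO (2733 to 2782 against 3636 to 3797 CPM).

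Of the 38 members, 36 reached the 16 reads over all libraries that a test needed. Hoxb5 and Hoxb6 did not, with 9 and 8 reads in all. Most members were lowly expressed, and 12 share exonic sequence with another gene on the same strand, so that part of their reads could not be assigned. The shared part was largest for Hoxd4 (67.4% of its exonic length, with Hoxd3), Hoxb8 (40.4%, with Hoxb7) and Hoxa3 (33.0%), and their values are uncertain for this reason.

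Promoter sequences are shown for 3 genes that rose on knockdown in WT, described below: Hoxb1 and Hoxa2, anterior genes whose promoters hold a site for HOX proteins, and Rarb, a retinoic acid receptor gene that retinoic acid itself induces. Each runs over the 250 bases before the RefSeq gene start, 5′ to 3′ on the strand of the gene, in build GRCm38.p6. The Hoxb1 sequence is chr11:96365508-96365757 (plus strand), the Hoxa2 sequence is chr6:52164832-52165081 (minus strand) and the Rarb sequence is chr14:16575477-16575726 (minus strand). Capitals mark, in Hoxb1 and Hoxa2, a match on either strand to TGATNNAT, a site at which HOX proteins bind together with their PBX partners, and in Rarb the retinoic acid response element of this gene, a direct repeat.
Hoxb1: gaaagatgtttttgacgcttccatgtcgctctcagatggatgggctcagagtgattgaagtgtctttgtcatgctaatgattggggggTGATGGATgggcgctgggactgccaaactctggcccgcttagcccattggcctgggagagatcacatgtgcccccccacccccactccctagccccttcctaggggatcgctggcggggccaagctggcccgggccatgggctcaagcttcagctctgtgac
Hoxa2: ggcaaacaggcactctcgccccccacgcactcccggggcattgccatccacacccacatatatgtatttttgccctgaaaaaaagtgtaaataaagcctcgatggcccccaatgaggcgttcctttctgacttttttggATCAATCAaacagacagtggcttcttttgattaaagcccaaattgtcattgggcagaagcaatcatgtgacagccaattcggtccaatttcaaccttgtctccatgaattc
Rarb: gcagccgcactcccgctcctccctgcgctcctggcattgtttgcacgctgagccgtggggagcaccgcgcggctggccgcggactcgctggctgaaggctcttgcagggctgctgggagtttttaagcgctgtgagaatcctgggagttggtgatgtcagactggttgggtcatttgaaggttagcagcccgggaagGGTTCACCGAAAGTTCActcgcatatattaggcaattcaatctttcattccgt
The matches begin 162, 111 and 53 bases before the start of Hoxb1, Hoxa2 and Rarb. A RefSeq promoter was matched for 22 of the 38 members. Over the full window of these promoters, from 250 bases before to 50 bases after the start, TGATNNAT occurred in 3 of 22 members (Hoxa2, Hoxb1 and Hoxb8) and in 9.04% of 27025 promoters. TGACAG, which MEIS cofactors bind, occurred in Hoxa2 and Hoxa3 and in 19.3% of promoters. Neither the Rarb element nor its consensus form was present in these windows of the 22 members, and each occurred in 2 of the 27025 promoters. A match of letters is a description and no measure of binding. The 22 members held a median of 13.5 CG dinucleotides (4 to 45), against 7 over all promoters, and 18 of them lay above that median.

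In WT cells H3K27me3 lay over nearly all Hox starts, and in the full peak lists most of these also carried H3K4me3. A peak within 1 kb of the start in both replicates was found at 36 of 38 members for H3K27me3 (94.7%, exact 95% interval 82.3 to 99.4%), against 16.1% of 20297 tested genes with a position. For H3K4me3 it was found at 30 of 38 members (78.9%, 62.7 to 90.4%), against 69.4% of genes. Both marks together were present at 28 members (73.7%, 56.9 to 86.6%) and at 13.3% of genes. These intervals cover counting error only, and members of a cluster share peaks, so the starts are not independent. With peaks above the median score alone, H3K4me3 remained at 14 members (36.8%), now below the 59.1% of all genes, and both marks at 12 (31.6% against 8.03%).

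Hoxc12 and Hoxc13, which lie side by side at the posterior end of HoxC, were the 2 members with H3K4me3 in both replicates but not H3K27me3. No H3K27me3 peak overlapped either gene in either replicate, though in replicate 2 alone a peak came within 1 kb of the Hoxc13 start. H3K4me3 covered 59.0% and 100% of the Hoxc12 gene in replicates 1 and 2, and 39.7% and 49.6% of Hoxc13. The widest H3K4me3 peak of HoxC, 9.10 kb at chr15:102759986-102769082 (mm9) in replicate 2, ranked 137 by width of 34888 peaks. The 8 members with H3K27me3 in both replicates but H3K4me3 in at most 1 were Hoxb1, Hoxb3, Hoxb4, Hoxb6, Hoxc4 and Hoxd4, with H3K4me3 in neither, and Hoxc9 and Hoxd12, with it in replicate 2 alone. Hoxb1 stood apart among them, since H3K27me3 covered 100% of the gene and no H3K4me3 peak was found within 5 kb of its start in either replicate.

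Over whole clusters, from the first to the last base of the members, H3K27me3 covered most of the sequence. In mm9 the spans are chr6:52112350-52210874 for HoxA, chr11:96055630-96229570 for HoxB, chr15:102751534-102867274 for HoxC and chr2:74506367-74603200 for HoxD. H3K27me3 peaks covered 95.7% and 100% of HoxA in replicates 1 and 2, 60.6% and 68.4% of HoxB, 62.0% and 65.8% of HoxC and 79.5% and 81.4% of HoxD, against 3.72% and 3.95% of the genome. HoxA lay within a single peak of 110 kb in replicate 2, the widest of 33126. H3K4me3 covered 28.5% and 35.2% of HoxA, 14.1% and 18% of HoxB, 24.5% and 31.9% of HoxC and 14.5% and 25.2% of HoxD, against 1.76% and 2.40% of the genome. HoxB had the least H3K4me3 cover in both replicates, and HoxA the most, except that with peaks above the median score alone HoxC had the most.

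**Figure D1:**
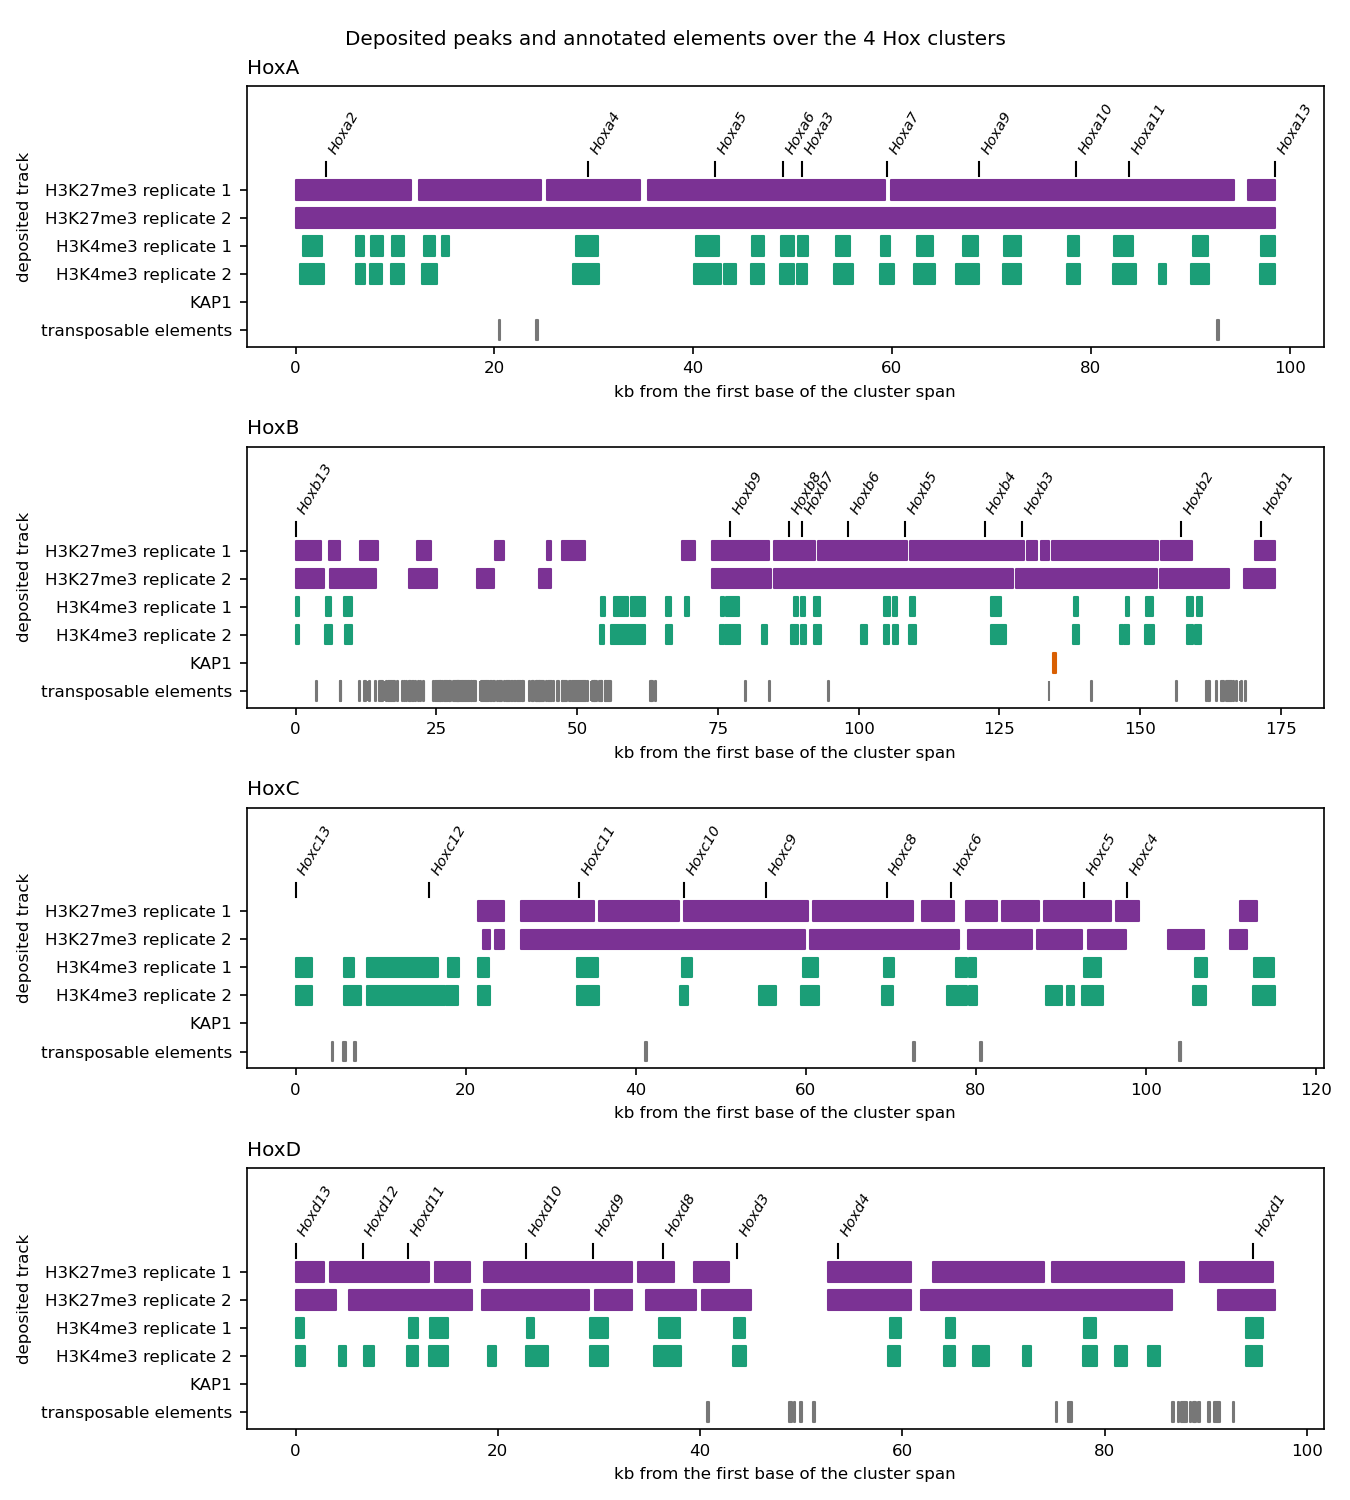
Peaks of H3K27me3 and H3K4me3 in each WT replicate, the KAP1 region, transposable elements and the starts of the member genes along the 4 Hox clusters, with distance from the first base of each span in kb on the horizontal axis. H3K27me3 spans nearly all of HoxA (95.7% and 100%) and leaves out Hoxc12 and Hoxc13, and the one KAP1 region lies in HoxB. Starts are those of the annotated gene, which puts Hoxa3 beside Hoxa6 and Hoxd3 before Hoxd4.

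Transposable elements, the usual targets of KAP1, covered less of each cluster than of the genome. Annotated transposable elements covered 0.368% of HoxA, 16.4% of HoxB, 0.793% of HoxC and 3.54% of HoxD, against 39.1% of the genome. Of 212 integrants within the spans 162 were SINEs, and 177 lay in HoxB.
A single deposited KAP1 region fell within a cluster, at chr11:96190183-96190723 (mm9, 541 bp). It lies within Hoxb3 but in none of its exons, and its nearer edge is 5.54 kb from the start of that gene. No H3K9me3 region, dependent on KAP1 or not, overlapped a cluster. From the start of a member to the nearest KAP1 region the median distance was 170 kb (5.54 to 318), against 51.4 kb over all tested genes. To the nearest H3K9me3 region that depends on KAP1 it was 207 kb against 108 kb.

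In WT cells with the control hairpin, 3 HoxC genes were among the 4 highest. Levels of different genes are compared here as RPKM, which is CPM per kb of unshared exonic length, and given as mean ± SD of 3 libraries. Hoxc13, a gene of hair and nail development, stood first at 5.80 ± 0.48. Hoxc4, a gene of the neck region at the other end of the cluster, followed at 3.83 ± 0.38. Then came Hoxb9 at 2.99 ± 0.12 and Hoxc12 at 2.94 ± 0.13, which differed by less than their SD. Hoxd13, which shapes digits, stood at 2.05 ± 0.46 and Hoxa7 at 1.65 ± 0.91, again with overlapping spreads. Hoxd9 (1.33 ± 0.74) and Hoxb13 (1.05 ± 0.67) were the only other members above 1 RPKM. At the other end Hoxb2 had a mean of 0.0143 RPKM, Hoxb3 0.0079 and Hoxa11 0.0044, and Hoxb5 and Hoxb6 had no read. Both genes without H3K27me3 over their span, Hoxc12 and Hoxc13, were thus among the 4 highest.

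Knockdown of Kap1 in WT cells raised Hoxb1 to Hoxb4 and 5 genes of HoxA and HoxD, and lowered Hoxc12 and Hoxc13. The comparison asked which Hox transcripts differed between shKap1 and shEmpty cultures at day 5. A change was called where the edgeR adjusted p was below 0.05 and the change at least 2-fold. The paper reports that the knockdown quickly stopped cell proliferation and led to much cell death, beginning before the day of collection. The part of arrest and cell death in the Hox changes was not tested. Of the 36 members tested 9 rose, against 10.8% of all tested genes, and 2 fell, against 6.54%, a share of falls close to that of all genes. The median log2 fold change of the members was 0.79, against -0.01 over all genes. The rises comprised 4 of 7 anterior, 4 of 13 tested central and 1 of 16 posterior members. Every shKap1 library lay above every shEmpty library in 12 members (26.9% of all genes) and below in 3 (27.4%). In bulk RNA, more cells expressing a gene and more RNA per cell cannot be told apart.

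Hoxb1, which specifies a hindbrain segment and is among the first Hox genes to respond to retinoic acid, had the largest rise of all members. It stood at 0.0555, 0.178 and 0.212 CPM in the shEmpty libraries of WT and at 9.85, 20.0 and 19.2 CPM in the shKap1 libraries. The groups lay far apart (log2 fold change 6.63, SE 0.37, adjusted p = 3.70e-10), and with shKap1 its mean of 7.05 RPKM was the highest of the 38 members. Hoxb2, which acts with Hoxb1 in the hindbrain, went from 0, 0.0711 and 0.0708 to 2.36, 5.41 and 6.82 CPM (log2 fold change 6.37, SE 0.76, adjusted p = 5.96e-06). Hoxb3, the host of the KAP1 region, went from 0, 0.0356 and 0.0354 to 0.472, 1.08 and 1.55 CPM (log2 fold change 5.02, SE 0.73, adjusted p = 1.86e-05). Hoxb2 and Hoxb3 had 4 and 2 reads over the shEmpty libraries, so the size of their rise is imprecise. Hoxb4, known for its role in blood stem cells, went from 0.500, 0.889 and 1.49 to 2.10, 4.68 and 5.76 CPM (log2 fold change 2.06, SE 0.39, adjusted p = 3.36e-04). All 4 genes had every shKap1 library above every shEmpty library, and they are neighbours at the anterior end of HoxB. Next to them Hoxb5 and Hoxb6 had 9 and 8 reads in WT shKap1 and none in any other group. By shKap1 library these were 0, 5 and 4 reads for Hoxb5 and 1, 2 and 5 for Hoxb6. Taken as they are, the sums lie at least 3.66- and 3.26-fold above a floor of 3 reads in the shEmpty group. The more posterior genes of the cluster did not pass, with log2 fold changes of 0.61 for Hoxb7, 1.22 for Hoxb8, 0.14 for Hoxb9 and 0.03 for Hoxb13.

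**Figure D2:**
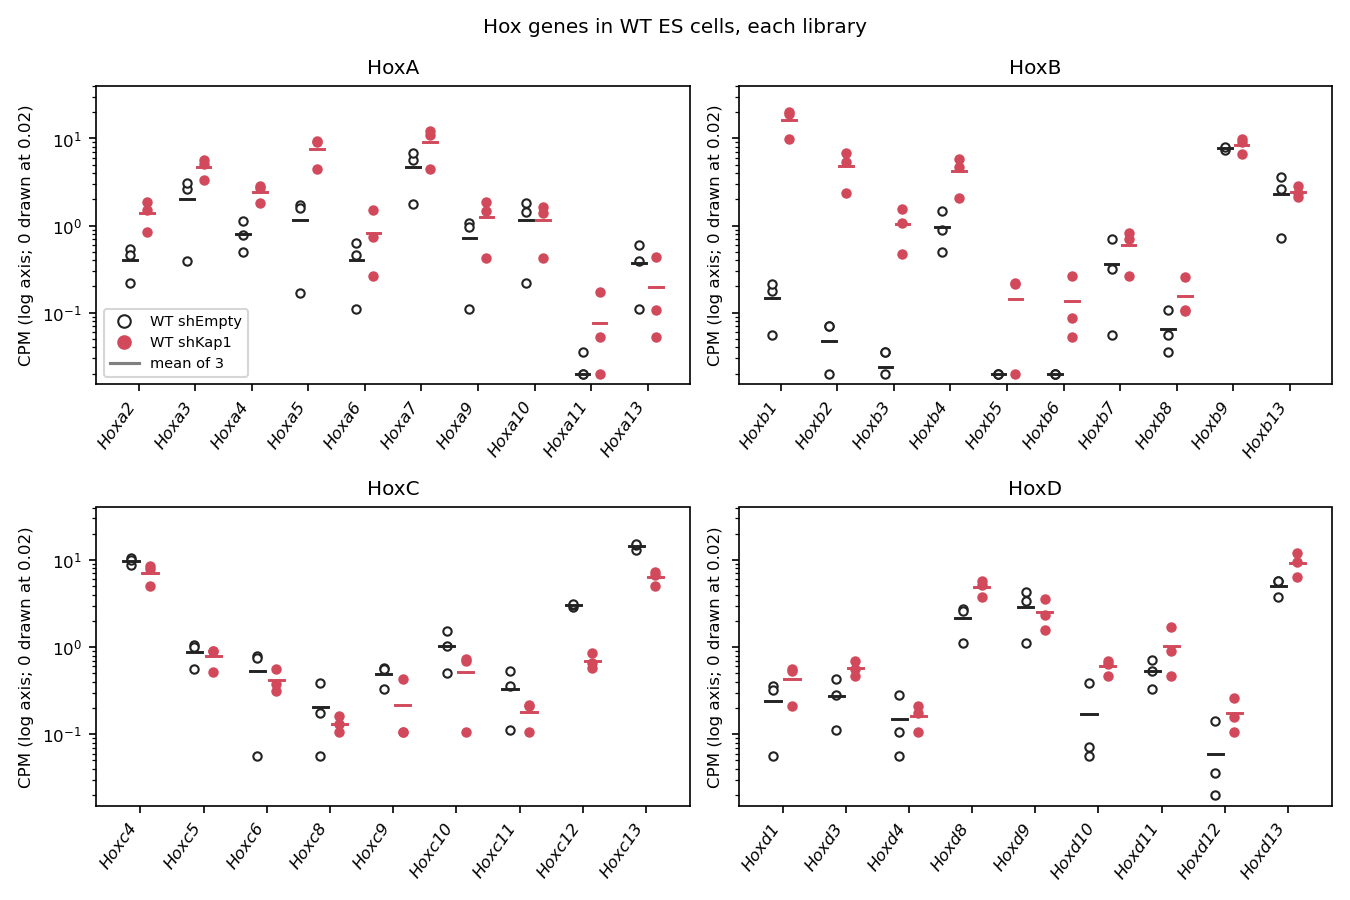
CPM of each member in each WT library on a log axis, ordered by paralog number within the 4 clusters, with shEmpty and shKap1 libraries as open and filled points, lines for means and 0 drawn at the foot of the axis. Hoxb1 to Hoxb4 lie above their controls in all shKap1 libraries, and Hoxc12 and Hoxc13 lie below.

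In HoxA the called genes were Hoxa2, an anterior gene, and Hoxa4 and Hoxa5, which are central. Hoxa5, needed for lung and upper thoracic development, went from 0.167, 1.71 and 1.59 CPM to 4.51, 9.09 and 9.33 CPM, with the groups apart (log2 fold change 2.63, SE 0.51, adjusted p = 7.28e-04). The shEmpty library numbered 1 was the lowest for this gene. Hoxa2, which patterns the hindbrain and the second branchial arch, went from 0.222, 0.534 and 0.460 to 0.839, 1.86 and 1.49 CPM (log2 fold change 1.72, SE 0.45, adjusted p = 0.00418). Hoxa4 went from 0.500, 0.783 and 1.13 to 1.83, 2.68 and 2.83 CPM (log2 fold change 1.56, SE 0.35, adjusted p = 0.00120). Hoxa3, a gene of thymus and parathyroid development, had 0.389, 2.63 and 3.11 and 3.30, 5.15 and 5.60 CPM, apart in all libraries, and did not pass (log2 fold change 1.13, adjusted p = 0.0569). It passed with the replicate number as a block (log2 fold change 1.23, adjusted p = 0.00481), as it did with library totals (0.0460), filterByExpr (0.0439) and limma-voom (0.0231), and without WT shEmpty replicate 3 (0.0303) or WT shKap1 replicate 1 (0.0415). Hoxa7, the member of HoxA with most reads, had 1.78, 5.69 and 6.76 CPM with shEmpty and 4.46, 10.9 and 12.2 CPM with shKap1, which overlap (log2 fold change 0.92, adjusted p = 0.111). Hoxa6, Hoxa9, Hoxa10, Hoxa11 and Hoxa13 did not pass, with log2 fold changes from -0.89 to 2.21.

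In HoxD, Hoxd8 and Hoxd10 rose. Hoxd8 went from 1.11, 2.70 and 2.58 to 3.77, 5.11 and 5.76 CPM (log2 fold change 1.15, SE 0.26, adjusted p = 0.00133), and Hoxd10, which acts in motor neurons of the hind limb, from 0.0555, 0.0711 and 0.389 to 0.472, 0.693 and 0.640 CPM (log2 fold change 1.67, SE 0.56, adjusted p = 0.0211). The hairpins did not overlap in either gene, but both calls rested on single libraries. Without WT shEmpty replicate 1 Hoxd8 came to 0.88, under 2-fold. The adjusted p of Hoxd10 came to 0.0620 without WT shEmpty replicate 1, 0.103 without replicate 2 and 0.0682 without WT shKap1 replicate 2. Hoxd13 stayed under 2-fold (log2 fold change 0.86, SE 0.19, adjusted p = 0.00105), from 3.78, 5.80 and 5.70 to 6.45, 9.48 and 12.1 CPM. The other HoxD members, Hoxd1, Hoxd3, Hoxd4, Hoxd9, Hoxd11 and Hoxd12, had log2 fold changes from -0.25 to 1.36 and did not pass.

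In HoxC no member rose and 2 fell. All 9 members had a negative log2 fold change in WT, with a median of -0.96, and their summed level went from 26.2, 32.6 and 32.9 CPM to 12.0, 19.3 and 17.7 CPM. Hoxc13 fell from 12.9, 14.7 and 15.2 CPM to 5.03, 7.19 and 6.72 CPM, every shKap1 library below every shEmpty library (log2 fold change -1.18, SE 0.18, adjusted p = 3.00e-05). Hoxc12 fell from 2.89, 3.06 and 3.15 to 0.577, 0.650 and 0.853 CPM (log2 fold change -2.13, SE 0.23, adjusted p = 7.09e-07). These were the 2 members described above with H3K4me3 at the start and no H3K27me3 over the gene. Hoxc4, at the other end of the cluster, had 8.72, 10.6 and 10.0 CPM with shEmpty and 5.03, 8.44 and 7.78 with shKap1, apart in all libraries but not past the threshold (log2 fold change -0.47, SE 0.32, adjusted p = 0.264). Values of Hoxc5, Hoxc6, Hoxc8, Hoxc9, Hoxc10 and Hoxc11 overlapped between hairpins, and their log2 fold changes ran from -1.13 to -0.19. The calls of Hoxb1, Hoxb2, Hoxb3, Hoxb4, Hoxa2, Hoxa4, Hoxa5, Hoxc12 and Hoxc13 remained under every alternative tried and without any single library of the comparison. With the replicate number as a block 12 members passed, the 11 above and Hoxa3 (17.4% of all genes called). Without the libraries numbered 1 of WT and DNMT TKO 13 passed (17.4%), among them Hoxc11, which was lower (-1.36, adjusted p = 0.0331), and Hoxd11, which was higher (1.05, 0.00853).

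**Figure D3:**
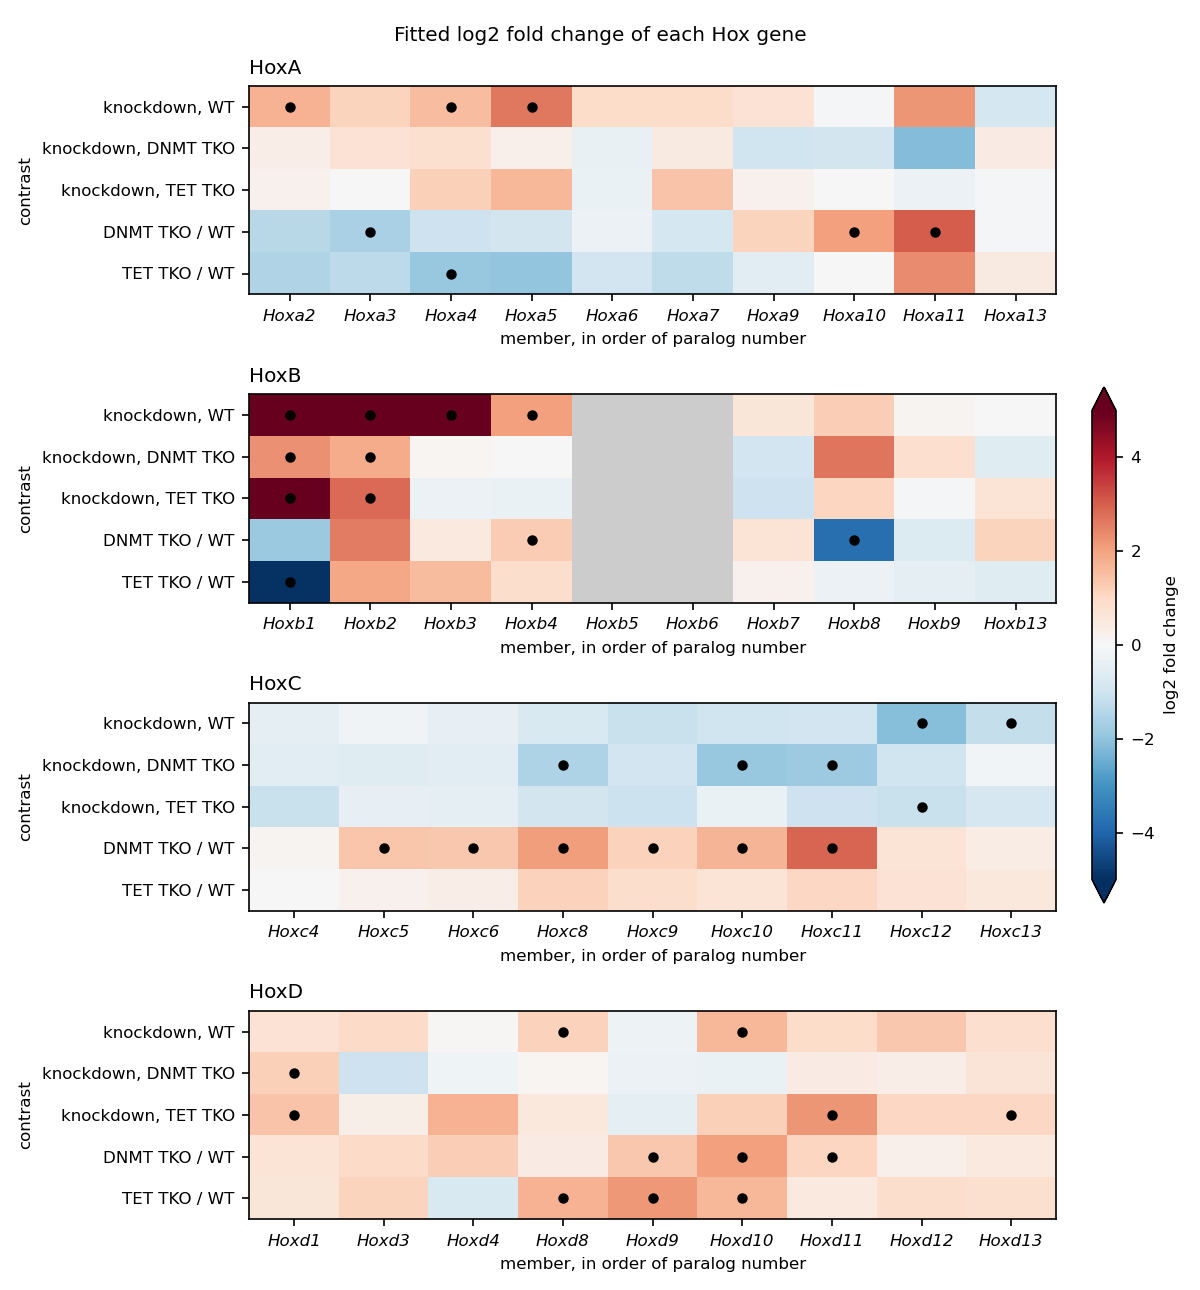
Heat map of the fitted log2 fold change of each member (columns, ordered by paralog number within the 4 clusters) in 5 contrasts (rows), red for higher and blue for lower, at full colour from 5 in either direction, with a dot where the member was called and grey for Hoxb5 and Hoxb6, which were not tested. HoxC is blue in all 3 knockdown rows and red for DNMT TKO against WT, deep red lies at Hoxb1 to Hoxb3 on knockdown in WT and at Hoxb1 in TET TKO, and the colours of Hoxb1 in TET TKO and Hoxb8 in DNMT TKO are fits against groups with 0 reads.

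In DNMT TKO cells the knockdown raised Hoxb1, Hoxb2 and Hoxd1 and lowered Hoxc8, Hoxc10 and Hoxc11. Of 36 members 3 rose (10.1% of all genes) and 3 fell (2.42%), so that the share of rises was no higher than that of all genes, and the median was -0.17 against 0.02 over all genes. Every shKap1 library lay above in 4 members (24.6% of genes) and below in 6 (20.2%). Hoxb1 had 0.0508, 0.0690 and 0 CPM with shEmpty and 0.192, 0.235 and 0.222 CPM with shKap1 (log2 fold change 2.29, SE 0.85, adjusted p = 0.0445), resting on 3 and 15 reads. Its call was lost without any single library of the comparison, with adjusted p from 0.0539 to 0.143, and with limma-voom (0.112). Hoxb2 had 0.0508, 0.414 and 0.501 and 0.480, 2.16 and 1.11 CPM, which overlap (log2 fold change 1.85, SE 0.63, adjusted p = 0.0325). This call was lost without shEmpty replicate 1 (0.0975) or 2 (0.0656) and without shKap1 replicate 2 (0.177) or 3 (0.0572). It was also lost with no filter on reads (0.0748), with limma-voom (0.0642) and with only these groups in the fit (0.0553). Hoxd1, active in pain-sensing neurons, went from 0.254, 0.483 and 0.501 to 1.01, 0.940 and 0.964 CPM with no overlap (log2 fold change 1.18, SE 0.37, adjusted p = 0.0196). Its adjusted p rose to 0.0735 without shEmpty replicate 1 and to 0.0518 without shKap1 replicate 3. Without the libraries numbered 1 of WT and DNMT TKO its log2 fold change came to 0.924, under 2-fold.

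The 3 falls in DNMT TKO were all in HoxC. Hoxc11 fell from 1.57, 3.07 and 3.35 to 0.576, 0.705 and 1.00 CPM (log2 fold change -1.80, SE 0.33, adjusted p = 3.75e-04) and Hoxc10, a gene of the lumbar region, from 2.59, 4.00 and 3.59 to 0.432, 1.32 and 1.00 CPM (log2 fold change -1.88, SE 0.39, adjusted p = 0.00126). Hoxc8, a gene of the lower thorax, fell from 0.559, 1.24 and 1.08 to 0.240, 0.517 and 0.260 CPM (log2 fold change -1.54, SE 0.44, adjusted p = 0.0117). The groups did not overlap in any of them. The call of Hoxc8 was lost without shEmpty replicate 2 (adjusted p = 0.0612) and without shKap1 replicate 3 (0.0517), and 3 members were called without either of these libraries. Hoxc12 had 4.62, 4.87 and 5.21 and 2.88, 1.69 and 2.78 CPM and stayed just under 2-fold (log2 fold change -0.99, SE 0.18, adjusted p = 3.99e-04). It passed with RLE scaling, no filter, filterByExpr, limma-voom and DESeq2, with the replicate block (adjusted p = 2.10e-04, just over 2-fold) and without the libraries numbered 1 (log2 fold change -1.16). Hoxc13 overlapped at 16.6, 21 and 17.4 and 12.8, 21.1 and 16.4 CPM (log2 fold change -0.13, adjusted p = 0.576). All 9 HoxC members had negative values here too, with a median of -0.97.
Hoxb9, the member of HoxB with most reads, had 5.89, 4.07 and 4.51 CPM with shEmpty and 9.65, 7.57 and 8.23 with shKap1, apart but under 2-fold (log2 fold change 0.82, SE 0.17, adjusted p = 8.92e-04).

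In TET TKO cells, 5 members rose (8.05% of all genes) and 1 fell (4.46%), with a median of -0.03 against -0.01. With 2 libraries per hairpin, 13 members lay above without overlap (33.6% of genes) and 11 below (36.2%). Hoxb1 had no read in either shEmpty library and 0.324 and 0.308 CPM (13 reads) with shKap1, at least 5.80-fold higher over the floor of 3 reads (adjusted p = 0.00468). Hoxb2 went from 0.282 and 0.150 to 1.25 and 1.90 CPM (log2 fold change 2.82, SE 0.80, adjusted p = 0.0149), Hoxd1 from 0.458 and 0.338 to 1.11 and 1.08 CPM (log2 fold change 1.44, SE 0.45, adjusted p = 0.0219). All 3 genes had both shKap1 libraries above both shEmpty libraries. Hoxb2 lost its call without shEmpty replicate 1 (0.0529) or 2 (0.105) and without shKap1 replicate 2 (0.0925), and Hoxd1 without any of the 4 libraries, with adjusted p from 0.0544 to 0.127.

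The other calls in TET TKO lay at posterior ends. Hoxd11, a gene of the forearm, went from 0.775 and 0.751 to 3.24 and 3.85 CPM (log2 fold change 2.21, SE 0.38, adjusted p = 2.41e-04). Hoxd13 went from 9.09 and 8.64 to 18.6 and 17.9 CPM (log2 fold change 1.04, SE 0.21, adjusted p = 0.00112). Hoxc12 fell from 4.79 and 5.29 to 2.45 and 2.21 CPM (log2 fold change -1.11, SE 0.23, adjusted p = 0.00110), and Hoxc13 stayed under 2-fold, at 19.9 and 21.1 and 10.0 and 13.1 CPM (log2 fold change -0.82, SE 0.20, adjusted p = 0.00456). None of these groups overlapped. The HoxC members again were all negative, with a median of -0.91. The HoxC sum went from 41.3 and 40.8 CPM to 20.6 and 23.7 CPM. Hoxb3 and Hoxb4, which rose in WT, had log2 fold changes of -0.30 (adjusted p = 0.884) and -0.32 (0.674) in TET TKO. Hoxa7 went from 2.08 and 1.92 to 5.69 and 5.03 CPM and Hoxc4 from 10.8 and 8.97 to 4.49 and 4.57 CPM. Neither was called in the main fit. Both passed with DESeq2 (adjusted p = 0.0300 and 0.0191), the replicate block (0.0276 and 0.0180) and only these groups in the fit. Hoxc4 also passed with filterByExpr (0.0454). Hoxa5, Hoxc9, Hoxd4 and Hoxd10 passed with only these groups, and Hoxd10 also with the block (0.0216).

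**Figure D4:**
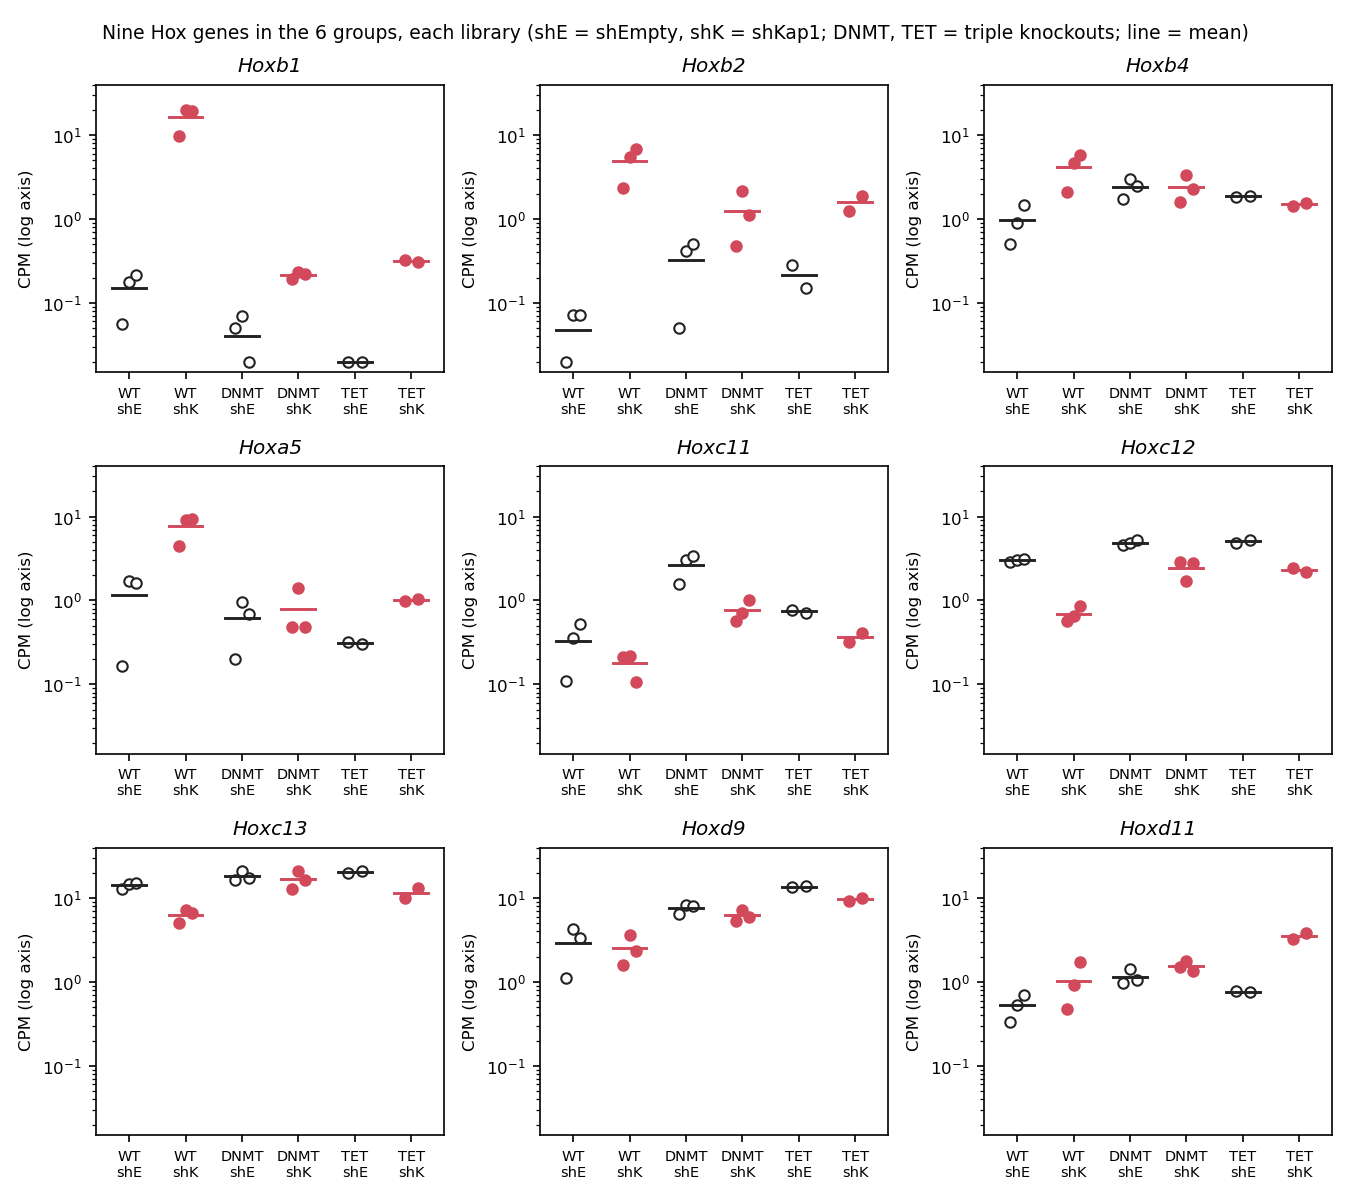
CPM per library in the 6 groups for members named in the text, on a log axis with 0 drawn at its foot, each point a library (open shEmpty, filled shKap1), the horizontal lines group means. Hoxb1 reaches 9.85 to 20.0 CPM with shKap1 in WT and at most 0.324 CPM in the other genotypes, while Hoxc12 is lower with shKap1 in all of them.

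Whether the knockdown acted differently between genotypes was tested on the difference of the log2 fold changes. Against WT, the effect in DNMT TKO was lower for Hoxb2 (-4.52, adjusted p = 0.0141), Hoxb4 (-2.08, 0.0112) and Hoxd3 (-2.01, 0.0309), and higher for Hoxc12 (1.14, 0.0129) and Hoxc13 (1.04, 0.00499), which fell less. These are 3 of 36 members down, against 2.48% of all genes, and 2 up, against 4.66%. The median over the members was -0.78, against 0.04 over all genes. Hoxb1 and Hoxb3 differed by -4.34 and -4.91 but had adjusted p of 0.0514 and 0.0553. Both passed with no filter (0.0351 and 0.0452), limma-voom (0.0230 and 0.0134) and DESeq2 (8.92e-04 and 0.0279). Hoxb1 alone passed with RLE scaling (0.0486) and filterByExpr (0.0456). Neither was called with library totals or with only these groups in the fit. With the replicate number as a block both passed as well (-4.36 and -4.99, adjusted p = 0.0161 and 0.0142). Hoxd3 had 0.111, 0.285 and 0.425 CPM against 0.472, 0.563 and 0.693 in WT and 0.559, 0.794 and 0.347 against 0.240, 0.329 and 0.260 in DNMT TKO, the hairpins apart in opposite directions, and neither comparison passed alone. Trim28 was less reduced in DNMT TKO, as given above, and the part of this in the differences was not tested.

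The calls of this comparison varied with single libraries, from 3 members without DNMT TKO shEmpty replicate 2 to 8 without replicate 1. Hoxb2 lost its call without DNMT TKO shEmpty replicate 2 (adjusted p = 0.0502) or 3 (0.0588). Hoxc12 came to 0.98 without DNMT TKO shKap1 replicate 3 and 0.98 without WT shKap1 replicate 1. Hoxc13 came to 0.93 without DNMT TKO shEmpty replicate 1, 0.80 without DNMT TKO shKap1 replicate 2, 1.00 without WT shEmpty replicate 3 and 0.86 without WT shKap1 replicate 1, all just under 2-fold with adjusted p below 0.05. Hoxd3 lost its call without DNMT TKO shEmpty replicate 2, DNMT TKO shKap1 replicate 1 or 3, WT shEmpty replicate 1 or 2, or WT shKap1 replicate 2 or 3, with adjusted p from 0.0503 to 0.106. Hoxb4 was called without each library in turn. Without the 4 libraries numbered 1, the lowest in Hox reads, 10 members passed (8.75% of all genes), 9 of them lower in DNMT TKO (3.41%), among them Hoxb1 (log2 difference -4.17), Hoxb3 (-4.87) and Hoxa5 (-2.42). Hoxc12 lost its call there (0.879, under 2-fold).

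In TET TKO the effect was lower than in WT for Hoxb3 (-5.31, adjusted p = 0.0325) and Hoxb4 (-2.38, 0.0224), 2 of 36 members against 2.13% of all genes, and for no member was it higher, against 2.08%. For Trim28 itself the difference was -0.06 (SE 0.23, adjusted p = 0.928). Hoxb2 differed by -3.56 (adjusted p = 0.134) and Hoxb1 by -0.71 (0.820), where the fitted value rests on 0 reads in TET TKO shEmpty. Without the libraries numbered 1 of WT and DNMT TKO, Hoxb2 passed (-3.52, adjusted p = 0.00161). The calls of Hoxb3 and Hoxb4 were both lost without WT shEmpty replicate 2 (0.0554 for Hoxb3 and 0.0542 for Hoxb4), TET TKO shEmpty replicate 2 (0.432 and 0.0777), and TET TKO shKap1 replicate 1 (0.104 and 0.0937) or 2 (0.0660 and 0.0811). Hoxb4 also lost it without TET TKO shEmpty replicate 1 (0.0636), and Hoxb3 without WT shEmpty replicate 3 (0.0523) or WT shKap1 replicate 2 (0.0504).

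Without knockdown, 6 HoxC genes and 6 members of the other clusters were higher in DNMT TKO than in WT. Of 36 members 12 were higher (8.23% of all genes) and 2 lower (8.05%), with a median of 0.69 against -0.02. The higher members comprised 8 of 16 posterior, 4 of 13 tested central and 0 of 7 anterior ones, and 6 of the 9 HoxC genes. Every DNMT TKO library lay above every WT library in 15 members (23.9% of genes) and below in 3 (26.9%). On the chromosomes of the clusters the other genes had medians of -0.29 (chromosome 6, HoxA), 0.29 (chromosome 11, HoxB), -0.08 (chromosome 15, HoxC) and -0.02 (chromosome 2, HoxD). The shifts of chromosomes 6 and 11 were not removed from the member values. DNMT TKO and TET TKO were compared with the same WT libraries.

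Hoxc11 had the lowest adjusted p, at 0.111, 0.356 and 0.531 CPM in WT and 1.57, 3.07 and 3.35 in DNMT TKO (log2 fold change 2.90, SE 0.37, adjusted p = 4.71e-06). Hoxc8 stood at 0.0555, 0.391 and 0.177 against 0.559, 1.24 and 1.08 CPM (log2 fold change 2.10, SE 0.47, adjusted p = 0.00132) and Hoxc10 at 0.500, 1.03 and 1.52 against 2.59, 4.00 and 3.59 CPM (log2 fold change 1.69, SE 0.38, adjusted p = 0.00170). Hoxc5, a gene of the neck and phrenic motor neurons, stood at 0.555, 1.07 and 0.991 against 1.68, 2.69 and 2.62 CPM (log2 fold change 1.39, SE 0.33, adjusted p = 0.00239). These 4 kept their call without each library in turn. Hoxc6, at 0.0555, 0.783 and 0.743 against 0.863, 1.59 and 1.81 CPM (log2 fold change 1.33, SE 0.52, adjusted p = 0.0490), and Hoxc9, at 0.333, 0.569 and 0.566 against 0.711, 1.17 and 1.47 CPM (log2 fold change 1.16, SE 0.44, adjusted p = 0.0394), act in limb-level and thoracic motor neurons. No library overlapped in Hoxc6 and Hoxc9. Both lost the call without DNMT TKO shEmpty replicate 2 or 3 or without any 1 of the 3 WT shEmpty libraries, with adjusted p from 0.0507 to 0.153 for Hoxc6 and from 0.0691 to 0.158 for Hoxc9. Hoxc6 also lost it with no filter (0.0766), DESeq2 (0.0565) or only these groups in the fit (0.0679), and Hoxc9 with limma-voom (0.0540) or DESeq2 (0.0703). The posterior ends Hoxc12 and Hoxc13 were apart from WT and under 2-fold, with log2 differences of 0.69 (adjusted p = 0.00442) and 0.36 (0.0820).

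Outside HoxC, Hoxa10, a gene of the lumbar region and uterus, stood at 0.222, 1.42 and 1.80 CPM in WT and 2.74, 6.42 and 6.05 in DNMT TKO (log2 fold change 2.06, SE 0.50, adjusted p = 0.00392). Hoxa11 had 1 read in WT and 11 in DNMT TKO (log2 fold change 3.04, SE 1.05, adjusted p = 0.0257). Its call was lost without DNMT TKO shEmpty replicate 1 (0.0796) and WT shEmpty replicate 1 (0.0597) or 2 (0.0970), and with DESeq2 (0.0707). It was also lost without the libraries numbered 1 of WT and DNMT TKO (0.128). Hoxd9 stood at 1.11, 4.23 and 3.36 against 6.40, 8.25 and 8.14 CPM (log2 fold change 1.34, SE 0.31, adjusted p = 0.00275) and Hoxd10 at 0.0555, 0.0711 and 0.389 against 0.660, 0.898 and 0.810 CPM (log2 fold change 2.07, SE 0.53, adjusted p = 0.00365), both without overlap. Hoxd11 was higher at 0.333, 0.534 and 0.708 against 0.965, 1.42 and 1.04 CPM (log2 fold change 1.08, SE 0.36, adjusted p = 0.0229). It lost the call without DNMT TKO shEmpty replicate 2 (0.108) or WT shEmpty replicate 1 (0.0704) or 2 (0.0642). Hoxb4, on a chromosome whose other genes had a median of 0.29, was higher by 1.28 (SE 0.40, adjusted p = 0.0148), at 0.500, 0.889 and 1.49 against 1.73, 3.00 and 2.47 CPM. It lost the call without the same 3 libraries as Hoxd11, with adjusted p of 0.0679, 0.0530 and 0.0561.

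The 2 members called lower were Hoxa3 and Hoxb8. Hoxa3 overlapped between the lines, at 0.389, 2.63 and 3.11 CPM in WT and 0.305, 0.898 and 0.810 in DNMT TKO (log2 fold change -1.61, SE 0.55, adjusted p = 0.0270), on a chromosome whose other genes had a median of -0.29. Its call was lost without DNMT TKO shEmpty replicate 1 (0.0882) or 3 (0.0562) and WT shEmpty replicate 2 (0.0886) or 3 (0.126), and with no filter (0.0687), limma-voom (0.103) or only these groups in the fit (0.0800). Hoxb8 had 5 reads in WT and none in DNMT TKO, at least 1.67-fold lower. Its adjusted p of 0.0442 came to 0.0570 and 0.141 without WT shEmpty replicates 1 and 3, and to 0.0735, 0.101 and 0.0937 without DNMT TKO shEmpty replicates 1, 2 and 3. With no filter it was 0.0678, with DESeq2 0.127 and without the libraries numbered 1 of WT and DNMT TKO 0.0808. Hoxb9 was below WT in every library and under 2-fold (log2 fold change -0.68, SE 0.17, adjusted p = 0.00285). With the replicate number as a block, 20 members passed, where 16.5% of all genes were called. Hoxb8 was lost (adjusted p = 0.0537), Hoxa9 (1.15), Hoxb2 (2.59), Hoxb13 (1.13) and Hoxd4 (1.27) were higher and Hoxa2 (-1.39), Hoxa4 (-1.04) and Hoxb1 (-1.85) lower. Without DNMT TKO shEmpty replicate 2 the count was 9 and without WT shEmpty replicate 2 it was 8.

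In TET TKO without knockdown Hoxd8, Hoxd9 and Hoxd10 were higher than in WT and Hoxa4 and Hoxb1 lower. Of 36 members 3 were higher (5.66% of all genes) and 2 lower (4.8%), counts near the shares of all genes, with a median of 0.47 against 0. Every TET TKO library lay above every WT library in 14 members (27% of genes) and below in 4 (26%). Other genes of chromosomes 2, 6, 11 and 15 had medians of -0.01 on each. Hoxd9 stood at 1.11, 4.23 and 3.36 CPM in WT and 13.5 and 13.8 in TET TKO (log2 fold change 2.18, SE 0.33, adjusted p = 1.55e-04), and Hoxd8 at 1.11, 2.70 and 2.58 against 7.79 and 7.06 CPM (log2 fold change 1.75, SE 0.27, adjusted p = 8.14e-05). Their neighbour Hoxd10 stood at 0.0555, 0.0711 and 0.389 against 0.423 and 0.789 CPM (log2 fold change 1.67, SE 0.59, adjusted p = 0.0434). The lines did not overlap in any of the 3 genes. Hoxd10 lost its call without WT shEmpty replicate 1 (0.104) or 2 (0.167) and TET TKO shEmpty replicate 2 (0.340), and with only these groups in the fit (0.108). The HoxD sum was 33.2 and 31.9 CPM, against 6.61, 14.1 and 13.9 CPM in WT.

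Hoxa4 was lower, at 0.500, 0.783 and 1.13 CPM in WT and 0.317 and 0.113 in TET TKO (log2 fold change -1.91, SE 0.53, adjusted p = 0.0120), and lost its call without WT shEmpty replicate 3 (0.0592) or TET TKO shEmpty replicate 2 (0.150). Hoxb1 had 12 reads in WT and 0 in TET TKO, at least 2.96-fold lower (adjusted p = 0.0240). That call was lost without WT shEmpty replicate 2 (0.0507) or 3 (0.0653) and TET TKO shEmpty replicate 1 (0.117) or 2 (0.109), and with limma-voom (0.104), and 3 members passed without TET TKO shEmpty replicate 2. HoxA members were mostly below WT, 8 of 10 with a median of -1.12. The WT library numbered 1, however, lay below both TET TKO libraries for all HoxA members except Hoxa2 and Hoxa4. Without the libraries numbered 1 of WT and DNMT TKO, 10 members passed, where 12.4% of all genes were called, the 5 above and Hoxa2 (-1.73), Hoxa3 (-1.71), Hoxa5 (-2.39), Hoxa6 (-1.31) and Hoxa7 (-1.63), all lower. All 9 HoxC members had positive values, with a median of 0.68, and none passed in the main fit. Deviations of same-numbered shEmpty libraries of WT and TET TKO correlated at -0.009 and 0.001, so no shift common to a replicate number was seen. With the replicate number as a block, which applies such a shift to all lines, 9 members passed, where 10.4% of all genes were called. The added ones were Hoxc11 (1.34, adjusted p = 0.0173), Hoxc8 (1.28, 0.0473) and Hoxb4 (1.14, 0.0152), which were higher, and Hoxa5 (-1.75, 0.0357), which was lower.

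Retinoic acid switches on anterior Hox genes in the embryo. Of 19 genes of retinoic acid signalling 8 rose and 2 fell on knockdown in WT, with a median of 1.54, where 10.8% of all genes rose and 6.54% fell. In DNMT TKO 3 rose (10.1% of all genes), and in TET TKO 3 rose (8.05%) and 1 fell (4.46%). Before knockdown 6 were lower in DNMT TKO (8.05%), and 3 were lower (4.8%) and 1 higher (5.66%) in TET TKO. Rxrg, a retinoid receptor, had 0.0555, 0.0711 and 0.106 CPM in WT shEmpty and 1.52, 3.68 and 2.77 CPM in WT shKap1 (log2 fold change 4.97, SE 0.48, adjusted p = 1.71e-07). Rarb had 0.389, 1.32 and 1.49 and 6.71, 12.1 and 11.1 CPM (log2 fold change 3.16, SE 0.40, adjusted p = 9.46e-06), and 0.0705 and 0.0376 CPM in TET TKO shEmpty, below WT (log2 fold change -4.23, SE 0.90, adjusted p = 0.00227). Of 11 TALE genes, whose PBX, MEIS and PREP proteins bind DNA together with HOX proteins, 3 rose in WT and the knockdown effect was lower than in WT for 3 in DNMT TKO (2.48% of all genes) and for 3 in TET TKO (2.13%). Meis1 went from 0.278, 0.711 and 0.601 to 4.82, 6.15 and 4.26 CPM in WT (log2 fold change 3.18, SE 0.30, adjusted p = 1.01e-07) and Meis2 from 30.1, 29.7 and 27.2 to 129.9, 97.8 and 99.4 CPM (log2 fold change 1.91, SE 0.10, adjusted p = 6.85e-11).

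Genes that set the chromatin state of the clusters are set here against all genes, of which 17.4% were called in either direction on knockdown in WT, 12.5% in DNMT TKO and 12.5% in TET TKO. Of 31 Polycomb genes 1 rose on knockdown in WT and none was called in DNMT TKO or TET TKO, with medians of -0.13, -0.14 and -0.12. In DNMT TKO without knockdown 2 were higher (8.23% of all genes) and 2 lower (8.05%). In TET TKO without knockdown Cbx8, part of a Polycomb complex that reads H3K27me3, was higher (log2 fold change 1.21, SE 0.16, adjusted p = 2.03e-05). None of 13 trithorax and H3K27 demethylase genes was called in any of the 7 contrasts, and 8 had an unadjusted p under 0.05 on knockdown in WT, as had 51.7% of all genes. Of the Cdx and ParaHox genes 5 were tested, and the Cdx genes among them regulate central and posterior Hox genes. Cdx1 stood at 47.3, 114 and 112 CPM in WT and 12.7 and 13 CPM in TET TKO (log2 fold change -2.83, SE 0.51, adjusted p = 0.00179). Cdx2 was higher in DNMT TKO than in WT (log2 fold change 1.94, SE 0.19, adjusted p = 2.23e-07), but the sum of the list was lower. The 7 genes summed to 48.9 to 116 CPM in WT shEmpty and 20.1 to 39.0 CPM in DNMT TKO shEmpty. In TET TKO shEmpty they summed to 13.8 to 13.9 CPM. In this list 1 gene rose in WT, 1 rose and 2 fell in DNMT TKO and none passed in TET TKO on knockdown.

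Other genes in and around the clusters were counted in the same way. Of 18 genes at the borders, 17 tested, 1 fell on knockdown in WT (Nfe2, log2 fold change -1.73, SE 0.29, adjusted p = 1.10e-04), 1 rose in DNMT TKO and none was called in TET TKO. Evx1, a homeobox gene beside HoxA, was lower in DNMT TKO (log2 fold change -4.28, SE 1.10, adjusted p = 0.00700). Of 11 tested other genes within the spans, mostly non-coding, 3 rose and 1 fell in WT, against 10.8% and 6.54% of all genes. Hoxb3os, antisense to Hoxb3, had 0.0555, 0.142 and 0 CPM with shEmpty and 1.10, 2.38 and 2.56 CPM with shKap1 in WT (log2 fold change 4.81, SE 0.70, adjusted p = 2.60e-05). Hoxa11as, antisense to Hoxa11, was higher in DNMT TKO (log2 fold change 3.27, SE 0.99, adjusted p = 0.0119). The libraries were stranded and counted on the reverse strand, so these are separate from the reads of Hoxb3 and Hoxa11.

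Markers of other cell types were low and moved with the knockdown. The 4 neurectoderm markers in the table summed to 1.21 to 1.89 CPM in WT shEmpty and 8.23 to 10.3 CPM in WT shKap1. They summed to 1.86 to 4.01 and 5.93 to 13.8 CPM in DNMT TKO, and to 0.775 to 0.789 and 3.52 to 4.00 CPM in TET TKO, so they were higher with shKap1 in every genotype. The 5 endoderm markers summed to 8.05 to 9.69 CPM with shEmpty and 11.5 to 13.5 with shKap1 in WT, to 4.01 to 6.48 CPM with shEmpty and 7.27 to 9.26 with shKap1 in DNMT TKO, and to 10.6 to 11.9 CPM with shEmpty and 12.5 to 12.6 with shKap1 in TET TKO. The 5 mesoderm markers summed to 4.56 to 6.39 CPM with shEmpty and 2.25 to 2.88 with shKap1 in WT, to 16.8 to 20.5 CPM with shEmpty and 6.53 to 7.90 with shKap1 in DNMT TKO, and to 4.92 to 5.43 CPM with shEmpty and 2.78 to 3.44 with shKap1 in TET TKO. The endoderm sum was thus higher and the mesoderm sum lower with shKap1 in every genotype, but single markers differed: Sox7 was at 3.78, 2.03 and 1.34 CPM in WT shEmpty and 0.419, 0.260 and 0.746 CPM in WT shKap1. Of the 5 endoderm genes 2 were called on knockdown in WT, 1 in DNMT TKO and 0 in TET TKO, and of the 5 mesoderm genes 2, 2 and 1, against 17.4%, 12.5% and 12.5% of all genes. The 4 trophoblast markers summed to 2.44 to 3.47 CPM with shEmpty and 4.16 to 5.66 with shKap1 in WT, to 5.97 to 7.21 CPM with shEmpty and 1.74 to 3.60 with shKap1 in DNMT TKO, and to 3.15 to 3.74 CPM with shEmpty and 2.55 to 2.77 with shKap1 in TET TKO. The 9 fibroblast markers summed to 3.39 to 4.38 CPM with shEmpty and 3.30 to 5.59 with shKap1 in WT, to 5.69 to 8.33 CPM with shEmpty and 11 to 11.7 with shKap1 in DNMT TKO, and to 7.54 to 7.70 CPM with shEmpty and 4.93 to 5.42 with shKap1 in TET TKO. With shKap1 the trophoblast sum was higher in WT and lower in both mutants, and the fibroblast sum was higher in DNMT TKO, lower in TET TKO and overlapped in WT. Called in the same 3 comparisons were 2, 2 and 1 of 3 tested neurectoderm genes, 3, 2 and 0 of 4 trophoblast genes and 3, 1 and 2 of 7 tested fibroblast genes. The part of other cell types in the Hox values was not tested.

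5hmC over the clusters was measured in WT by hMeDIP, an antibody pull-down of hydroxymethylated DNA, with 1 usable replicate per hairpin and thus without a test. Values are the log2 ratio of 5hmC to input, each as a share of its library over all region sets. Over 47 usable of 48 H3K27me3 regions within the clusters the median ratio was -0.76 with shEmpty and -0.36 with shKap1. The median change per region was 0.38, with 41 of 47 regions positive and 5 up by at least 2-fold (10.6%), against a median of 0.27, 13082 positive and 9.50% over 19072 such regions of the genome. By cluster the median change was 0.28 in HoxA (6 regions), 0.55 in HoxB (15), 0.45 in HoxC (14) and 0.24 in HoxD (12). Over 69 H3K4me3 regions of the clusters the median ratio went from -1.42 to -1.24, with a median change of 0.33 against 0.39 over 27830 regions. Of these 69 regions 6 were up by at least 2-fold (8.70%, against 19.7% of all). As many as 6 of the 69 were down by at least 2-fold, against 858 of the 27830. The median change was 0.42 in HoxA (19 regions), 0.37 in HoxB (24), 0.43 in HoxC (15) and -0.14 in HoxD (11, of which 5 were positive). With at least 30 input reads the HoxD median was 0.011 (10 regions, 5 positive). With libraries scaled to the reads in H3K4me3 regions the median changes of the clusters were -0.0049 and -0.054, against -0.12 and 0.0040 over all regions of the kind, and 23 of the 47 H3K27me3 regions were positive, so the direction within the clusters depended on the scaling. This scaling shifts every region by the same amount and brings the H3K4me3 regions close to no change by construction. It does not alter how far the medians of the clusters lie from those of all regions, but the shares past 2-fold do change. With it 8.51% of the H3K27me3 regions of the clusters were up by at least 2-fold, against 3.27% of all. For H3K4me3 regions the shares were 4.35% and 9.02%.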

How the data were processed

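RNA was sequenced as stranded poly(A) libraries from 16 samples. Per the paper's methods the authors aligned reads to mm9 with HISAT2, kept unique ones and counted them over exons on the reverse strand with featureCounts. The deposited values are raw read counts per gene. Submitters' processing notes list HISAT2 2.0.1, featureCounts 1.5.1, Bowtie2 2.2.1, MACS 1.4 and SICER 1.1. For ChIP-seq the authors deposited, per replicate, peaks with a score against the input. The methods name MACS, and SICER for H3K9me3. The H3K27me3 regions start on a fixed grid, the form SICER gives, so the program behind their score is uncertain. 5hmC values are deposited read counts over fixed region sets. The paper lists its KAP1 and H3K9me3 ChIP-seq among previously published data.

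Counts were tested in edgeR 4.0.16 (R 4.3.3) with TMM scaling and quasi-likelihood F tests over all 16 libraries, for 20321 genes with at least 16 reads in total, and p-values were adjusted by the Benjamini-Hochberg method per contrast. Members were called at 2-fold and an adjusted p under 0.05. The file pairs Ensembl identifiers with no symbols, and symbols came from the mm9 annotation. Folds against a group with no read are bounds from 3 reads over that group, with the reads of the other group taken as they are. Depth ran from 18108431 to 29373696 reads, and the intervals given include no error but that of counting. Peaks and genes were matched where they shared at least 1 bp. 5hmC used a pseudocount of 1 read and at least 10 input reads. Members, lists and named genes (every member called, the highest of each cluster, and at most 2 per list, of which 1 gene is not reported here) were chosen with earlier results of these data known. Replicate numbers were checked for pairing: deviations of same-numbered libraries correlated at 0.118 to 0.274 between WT shEmpty and shKap1 and at 0.135 to 0.317 between shEmpty of WT and DNMT TKO, and what a number stands for is not given in the sources used here. The methods call the samples independent experiments. Alternatives covered scaling, filters, limma 3.58.1 (voom), DESeq2 1.42.0, the block, the groups fitted and left-out libraries. Of the tables over transposable elements only the positions were used. The hMeDIP libraries of replicate 2 entered no comparison, because the role in the label and that in the name of the file differ. Sequences are from RefSeq (GRCm38.p6), and all other coordinates are of mm9.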

Additional observations from a re-analysis of the deposited data

Results flagged for a closer look

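The effect of Kap1 knockdown differed between genotypes by a test of the difference itself for 7 gene and genotype pairs, given as the log2 fold change in the mutant minus that in WT. In DNMT TKO these were Hoxb2 at -4.52, Hoxb4 at -2.08, Hoxd3 at -2.01, Hoxc12 at 1.14 and Hoxc13 at 1.04. In TET TKO they were Hoxb3 at -5.31 and Hoxb4 at -2.38. For Hoxb4 the knockdown effect was 2.06 in WT, -0.02 in DNMT TKO and -0.32 in TET TKO. For Hoxb3 it was 5.02, 0.11 and -0.30, and the difference in DNMT TKO (-4.91, edgeR adjusted p = 0.0553) did not pass in the main fit. It passed with the replicate block (-4.99, adjusted p = 0.0142), no filter (0.0452), limma-voom (0.0134) and DESeq2 (0.0279), and without the libraries numbered 1 (0.0154). It was not called with RLE scaling, library totals, filterByExpr or only the groups of the contrast. Both differences use the same WT libraries.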

How the results depend on the processing

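Member calls given in the text were recomputed under scaling by RLE or library totals, no filter, filterByExpr, limma-voom, DESeq2, a replicate block, adjusted p alone, only the groups of the contrast and with each library left out. To these was added, after the data were seen, leaving out the 4 libraries numbered 1 of WT and DNMT TKO. Of 792 values for 49 member results 682 kept their call, 110 lost it and 0 changed sign. With adjusted p alone no call could be lost, and settings in which a member was not tested were not counted. The cause of a lost call was not tested. For the knockdown in DNMT TKO minus WT the main count of 5 became 9 with no filter (5.23% of all genes), 8 with filterByExpr (8.44%) and 8 with limma-voom (7.76%). It became 10 with DESeq2 (6.81%), 11 with the block (7.64%) and 10 without the libraries numbered 1 (8.75%). For TET TKO against WT the main count of 5 became 9 with the block (10.4% of all genes) and 8 with adjusted p alone (27.2%). It became 3 with only the groups of the contrast (10.7%) and 10 without the libraries numbered 1 (12.4%). For the knockdown in TET TKO 6 became 11 with only the groups of the contrast (14.8% of all genes). With 1 library left out at a time, the counts ran from 10 to 15 for the knockdown in WT, 3 to 6 in DNMT TKO, 4 to 5 in TET TKO, 8 to 15 for DNMT TKO against WT, 3 to 7 for TET TKO against WT, 3 to 8 for DNMT TKO minus WT and 0 to 3 for TET TKO minus WT. The share of all genes was not computed for these left-out fits. A lone library left in a TET TKO group was assumed to vary like the other groups.

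With the replicate block 12 members passed for the knockdown in WT, where 17.4% of all genes were called. On knockdown in DNMT TKO 7 passed (12.7% of all genes) and in TET TKO 9 (12.9964%). For DNMT TKO against WT 20 passed (16.5%), and for TET TKO minus WT 3 (4.89%). Same-numbered shEmpty and shKap1 libraries correlated at 0.274, 0.118 and 0.121 in WT and at 0.330, 0.174 and 0.078 in DNMT TKO. In TET TKO they correlated at -0.004. Pairing by design is established in no genotype, since what a number stands for is not given. The block added to the differences in DNMT TKO minus WT Hoxa5 (-2.43), Hoxa9 (-1.72), Hoxb1 (-4.36), Hoxb3 (-4.99), Hoxd8 (-1.06) and Hoxd10 (-2.14), with adjusted p of 0.0161 for Hoxb1 and 0.0142 for Hoxb3, and to those in TET TKO minus WT Hoxb2 (-3.63, adjusted p = 0.0214). With peaks above the median score, H3K4me3 was found at 14 members and both marks at 12. H3K4me3 cover, as the mean of 2 replicates, then fell to 17.1% of HoxA, 6.27% of HoxB, 20.5% of HoxC and 11.2% of HoxD, and H3K27me3 cover of HoxC to 61.0%. In spans widened by 10 kb, H3K27me3 covered 93.4% of HoxA, 59.6% of HoxC and 76.3% of HoxD. Scaling 5hmC to the reads in H3K4me3 regions gave -0.0049 for H3K27me3 regions and -0.054 for H3K4me3 regions. Depth limits what can be said of members with few reads, and Hoxa11, Hoxb2, Hoxb3, Hoxb5, Hoxb6, Hoxb8 and Hoxd12 each had under 10 reads over the WT shEmpty libraries.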

Other observations

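The 4 hMeDIP libraries of replicate 2, which enter no comparison, had the following levels over the H3K27me3 regions of the Hox clusters, in RPM, here reads relative to all reads over the region sets. By their labels the inputs held 647 (shEmpty) and 1355 (shKap1), and the 5hmC libraries 635 (shEmpty) and 1295 (shKap1). Over the H3K4me3 regions the same 4 libraries held 113, 393, 102 and 375. In replicate 1 the inputs held 1356 and 1231 over the H3K27me3 regions and the 5hmC libraries 846 and 962. Over the H3K4me3 regions these inputs held 384 and 358 and the 5hmC libraries 152 and 161. By level, the replicate 2 libraries at 647 and 635 lay nearer the 5hmC libraries of replicate 1, and those at 1355 and 1295 nearer its inputs. No difference between hairpins can be read from the labels of replicate 2.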
